A study of Mus musculus with 15 samples.

Results

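Transcripts of rod photoreceptors were followed in microglia sorted from mouse retinas. The set holds 37 rod genes, listed by name and found by symbol in the deposited gene table of 35735 genes. All 37 had reads in at least some libraries, and 27 of them passed the filter on low counts and were tested among 6521 genes. The 10 untested members were Cnga1, Rgs9, Gucy2f, Gucy2e, Impg2, Fscn2, Impg1, Samd7, Nxnl1 and Unc119. Over 15 libraries the 37 genes took 7783 reads.

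The libraries were bulk RNA from Fcrls+ CD11b+ Ly6c- microglia of C57BL/6 mice aged 12 weeks, sorted after a Percoll gradient. The 4 groups were wild type with a sham injection (n = 4), wild type with a microbead injection (n = 3), Apoe-/- with a sham injection (n = 4) and Apoe-/- with a microbead injection (n = 4). Injected microbeads hinder the drainage of ocular fluid and serve as a glaucoma model, and Apoe encodes the lipid carrier apolipoprotein E. The sources used here do not give the time after injection or how the Apoe allele was made. Each library is 1 numbered retina, and nothing says that the retinas came from separate mice, so the p-values measure only the spread between these retinas.

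Rods are the light-sensing neurons of dim light and the most numerous cells of the mouse retina. A captured photon activates the G protein transducin, which releases a phosphodiesterase from its inhibitory subunit. The enzyme then lowers cyclic GMP and closes cation channels of the outer segment. The transcription factors Crx, Nrl and Nr2e3 hold the rod programme in place. Microglia are the resident phagocytes of the same tissue and are not known to transcribe the phototransduction genes. Several members, among them Crx, Prph2, Rom1 and Rcvrn, are also transcribed in cones. In bulk samples fewer cells of a type and less RNA per cell cannot be told apart.

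The bases upstream of 6 members are shown with 2 short motifs that rod transcription factors are known to bind. Any link between these motifs and the levels of the members in the libraries was not tested. RefSeq windows of 300 bases on GRCm38.p6 (mm10) were found for 30 of the 37 genes, 34 windows in all. The Crx-type motif TAATCC, searched on both strands, was in 14 of these 34 windows (41.2%) and in 7.06% of all 32851 windows of the table. The Nrl-type motif TGCTGA, on both strands, was in 11 (32.4%) and in 19.5% of all windows, and 3 member windows held both motifs. The 2 motifs share no stretch that would let 1 match count for both. A match is a run of letters and was not tested as a binding site. The 150 bases that end just before each RefSeq start follow, read in the direction of the gene, with motif matches on either strand in capitals. Cngb1 and Crx held 2 Crx-type matches each, Gngt1, Rbp3 and Sag 1 each, and Pde6b 1 Nrl-type match. All 6 stretches shown hold a match and so do not stand for the whole set. The windows of Prph2, Rom1, Nrl and Tulp1, among others, held neither motif.
Cngb1, chr8:95306586-95306735, minus strand: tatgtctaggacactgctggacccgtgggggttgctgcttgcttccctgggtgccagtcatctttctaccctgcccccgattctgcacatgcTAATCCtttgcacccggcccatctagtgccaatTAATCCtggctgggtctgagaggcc
Crx, chr7:15879956-15880105, minus strand: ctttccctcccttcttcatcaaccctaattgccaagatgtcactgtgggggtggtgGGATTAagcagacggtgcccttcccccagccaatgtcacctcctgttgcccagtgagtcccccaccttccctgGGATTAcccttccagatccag
Gngt1, chr6:3993858-3994007, plus strand: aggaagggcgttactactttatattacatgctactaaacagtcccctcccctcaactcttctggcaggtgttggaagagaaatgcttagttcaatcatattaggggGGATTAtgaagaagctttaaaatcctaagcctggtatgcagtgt
Rbp3, chr14:33953853-33954002, plus strand: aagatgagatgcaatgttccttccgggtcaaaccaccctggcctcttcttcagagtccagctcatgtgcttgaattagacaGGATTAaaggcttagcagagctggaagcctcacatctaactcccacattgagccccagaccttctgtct
Sag, chr1:87803530-87803679, plus strand: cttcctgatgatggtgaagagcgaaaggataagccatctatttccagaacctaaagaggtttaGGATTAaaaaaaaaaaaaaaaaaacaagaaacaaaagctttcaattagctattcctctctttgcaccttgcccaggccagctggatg
Pde6b, chr5:108388223-108388372, plus strand: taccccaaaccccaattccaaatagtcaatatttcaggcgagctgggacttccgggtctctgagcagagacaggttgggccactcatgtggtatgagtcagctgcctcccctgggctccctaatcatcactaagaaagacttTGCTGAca

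Libraries held 458111 to 714670 gene reads. Gene models of the major satellite repeat, 12 in number, took 40.8 to 74.4% of them, so only 117130 to 419291 reads lay outside these models. In wild type the satellite share was 61.3% ± 4.51 (SD, n = 4) after sham and 45.2% ± 7.22 (SD, n = 3) after microbead injection, and in Apoe-/- it was 67.8% ± 4.49 (SD, n = 4) and 64.1% ± 6.58 (SD, n = 4). Apoe checked the genotype labels, with 667 to 15125 reads in wild-type and 0 to 6 in Apoe-/- libraries. The gate was checked too: Fcrls had 29 to 248 reads and Itgam, which encodes CD11b, 34 to 230 in every library, while Ly6c2 had 0 to 5. Levels are given as CPM, counts divided by a library size that was scaled by the trimmed mean of M-values (TMM). Apoe-/- sham library 2 had the smallest such size, 225227 reads, and the second wild-type microbead library the largest, 1000258. A level of 3 reads, the limit that a count of 0 allows, thus lies between 3.00 and 13.3 CPM, and covers counting error only.

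Rod reads were present in every library, at very unequal levels. Libraries 1 to 4 of the wild-type sham group held 349, 294, 1554 and 1233 of them, and the 3 microbead libraries of that genotype 452, 406 and 112. In Apoe-/- retinas the sham libraries had 240, 391, 101 and 256 and the microbead libraries 300, 84, 713 and 1298. The 4 libraries with the most rod reads, wild-type sham 3 and 4 and Apoe-/- microbead 3 and 4, held 61.6% of them all. As a share of the reads outside the satellite models, rod reads ranged from 0.0377% (exact Clopper-Pearson 95% interval 0.0311 to 0.0454) in wild-type microbead library 3 to 0.651% (0.615 to 0.688) in wild-type sham library 4.

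The summed level of the 37 genes was 530.0, 514, 1863 and 2652 CPM in wild-type sham, and 655, 406 and 149 CPM in wild-type microbead libraries. It was 571, 1736, 176 and 668 CPM in Apoe-/- sham, and 621, 229 and 1386 CPM in Apoe-/- microbead libraries 1 to 3, with 2019 CPM in library 4. Of the 15 libraries 5 lay above 1000 CPM, from 1386 upward, and the other 10 lay at 668 CPM or below. The high libraries came from 3 of the 4 groups, and every group also held libraries at 668 CPM or below. Within a group the highest library exceeded the lowest 5.16-fold, 4.38-fold, 9.88-fold and 8.80-fold, in the order in which the groups were introduced.

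Wild-type libraries averaged 1389.7 ± 1053 CPM (SD, n = 4) after sham and 403 ± 253 CPM (SD, n = 3) after microbead injection. Apoe-/- libraries averaged 788 ± 667 CPM (SD, n = 4) after sham and 1064 ± 798 CPM (SD, n = 4) after microbead injection. The groups overlapped in each genotype. The wild-type microbead library 1, at 655 CPM, lay above wild-type sham libraries 1 and 2, and the Apoe-/- microbead library 2 lay below 3 of the 4 Apoe-/- sham libraries. No p is given for this sum, because the genes were chosen with results of these data known. Leaving out 1 library at a time, the means ranged from 969 to 1682, from 278 to 530.3, from 471 to 992 and from 746 to 1342 CPM. Apoe-/- sham library 2 decides much of its group: it has the smallest library size and the largest satellite share, and the mean of the other 3 libraries was 471 CPM. Scaled to reads outside the satellite models, its share of rod reads was 0.334%, against 0.0462 to 0.155% in the other 3.

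**Figure D1:**
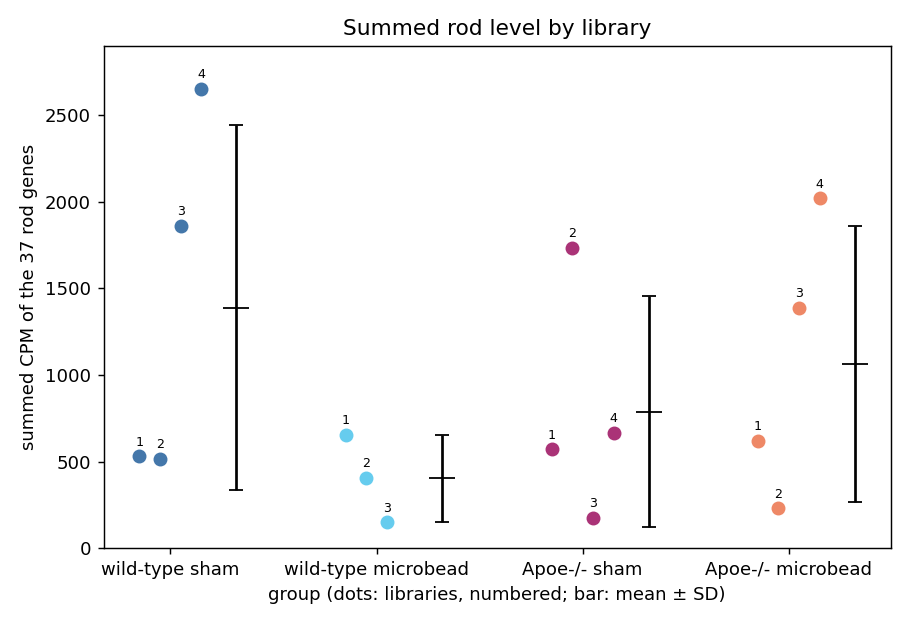
Summed CPM of the 37 rod genes (vertical axis) in each library, by group; dots are libraries with their replicate numbers and the bar to the right is the mean ± SD. The 5 libraries above 1000 CPM belong to 3 groups, and each group also holds libraries at 668 CPM or below.

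The make-up of the rod reads varied less over libraries than their total. The transduction cascade held 41.1% of all rod reads (8 genes, 3196 reads), shut-off and calcium feedback 21.7% (9 genes, 1689 reads) and outer segment structure 14.9% (7 genes, 1158 reads). Retinoid handling held 8.57% (3 genes, 667 reads), transcription factors and chromatin 4.83% (4 genes, 376 reads), and trafficking, chaperones, synapse and survival 8.96% (6 genes, 697 reads). Per library the cascade ranged from 34.8 to 47.8% and structure from 7.14 to 18.9%. The library that stood apart most was wild-type microbead 3, with 112 rod reads, where shut-off genes took 37.5% against 16.3 to 29.3% elsewhere. Gnat1 alone took 14.3 to 29.1% of a library's rod reads.

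**Figure D2:**
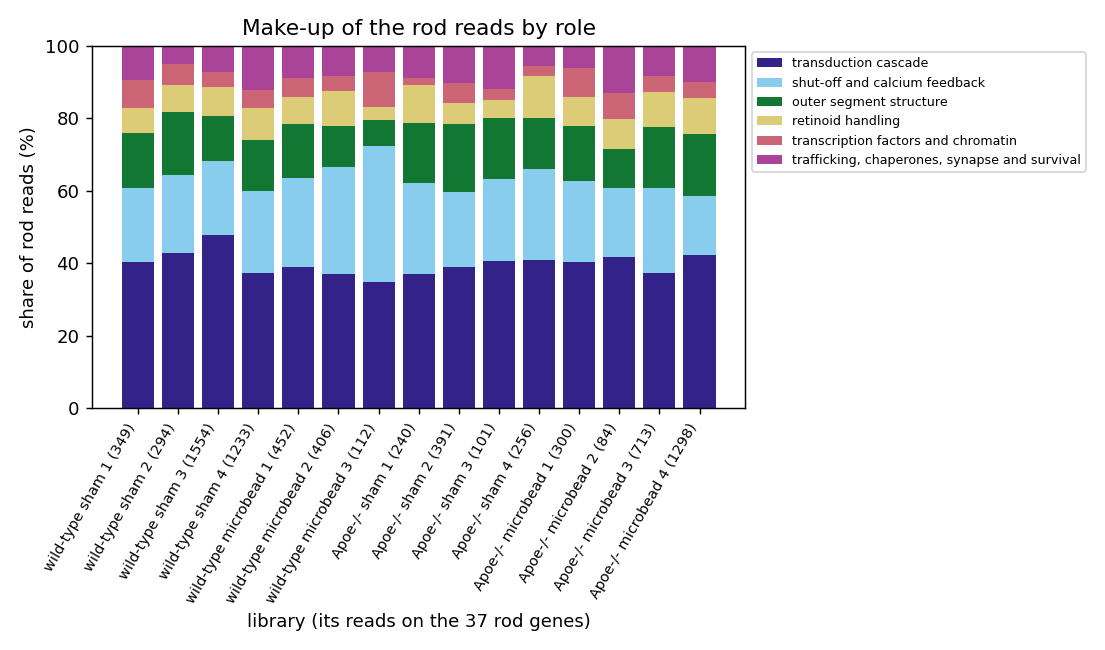
Share of rod reads (%) taken by each of 6 roles, in each library, with the library's number of rod reads in brackets. The transduction cascade takes 34.8 to 47.8% in every library, from the 84 rod reads of Apoe-/- microbead 2 to the 1554 of wild-type sham 3.

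The members varied together. Across the 15 libraries, the log2 CPM of a tested member correlated with the mean of the other 26 at a median Pearson r of 0.887, from 0.689 for Grk1 to 0.971 for Rom1. The median over the other tested genes was -0.01. These points share their libraries and depth and the members were chosen as a group, so the values are descriptions and carry no p. Their spread inside the groups was wide. The within-group SD of log2 CPM had a median of 1.15 over the 27 tested members, 0.53 over all genes tested, 0.37 over 16 homeostatic microglial genes and 0.46 over 18 genes of the neurodegenerative microglial state. All 27 lay above the median of all genes. The biological coefficient of variation that edgeR assigned them had a median of 67.1%, against 30.3% for all genes tested.

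**Figure D3:**
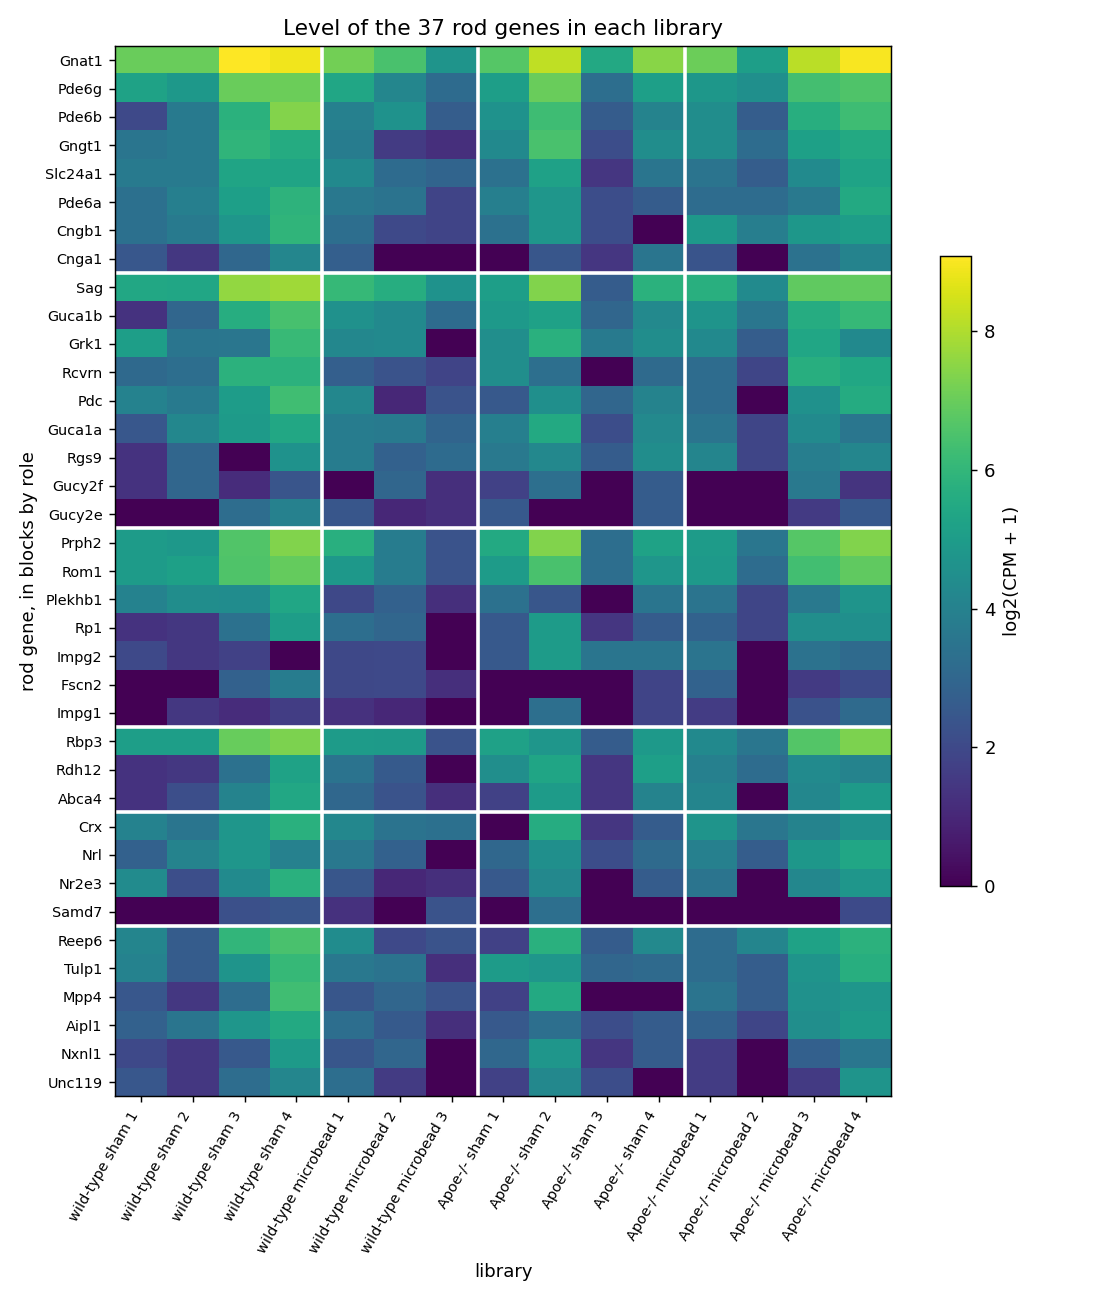
Level of each of the 37 rod genes (rows, in blocks by role) in each of the 15 libraries (columns, in blocks by group), as log2(CPM + 1). Columns wild-type sham 3 and 4, Apoe-/- sham 2 and Apoe-/- microbead 3 and 4 are bright over most rows, and Apoe-/- microbead 2, Apoe-/- sham 3 and wild-type microbead 3 are dark over most rows.

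The comparison of microbead with sham retinas asked, for each genotype, how transcript levels in the sorted cells changed in the glaucoma model. In wild-type retinas all 27 tested members had a lower fitted level with microbeads, with a median log2 fold change of -1.90 (range -3.35 to -0.98) against -0.01 for all genes. None of the 27 passed the test (edgeR's quasi-likelihood test, Benjamini-Hochberg adjusted p of at most 0.05 over 6521 genes). The background of calls was 13 genes, or 0.199%, all of them higher. The smallest adjusted p of a member was 0.245, for Plekhb1, and 14 of 27 members had an unadjusted p under 0.05, against 7.87% of all genes. A member that passed the filter only through high sham libraries had to differ, and the members vary together, so these counts give no independent support. Over all 37 genes without the filter the median was -1.70.

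In Apoe-/- retinas the fitted level was higher with microbeads for 24 of 27 members and lower for 3, Grk1, Guca1a and Rdh12. The median log2 fold change was 0.81 (range -0.63 to 1.67) against 0.01 for all genes. None of the members and none of the 6521 genes passed the test (0%), the smallest adjusted p of a member was 0.700, and 2 members, Cngb1 and Rbp3, had an unadjusted p under 0.05, as did 6.95% of all genes. DESeq2 also called 0 members in each genotype. Over all 37 genes without the filter the median was 0.88.

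Between genotypes, 26 of 27 members were fitted lower in Apoe-/- than in wild-type sham retinas (median -1.09, smallest adjusted p 0.555), with none called and 1 of 6521 genes called (0.0153%). With microbeads all 27 were fitted higher in Apoe-/- (median 1.61, smallest adjusted p 0.513), with none called and 3 genes called (0.046%). The difference between the microbead responses, Apoe-/- minus wild type, was above 0 for all 27 (median 2.59), and again no member and no gene passed (0%), with adjusted p-values of 1.00 for every member. Of the members 6, 8 and 14 had an unadjusted p under 0.05 in these 3 comparisons, against 8.68, 7.19 and 3.39% of all genes. The 5 comparisons share libraries, so they are not independent of each other.

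These values depended on which libraries were in the fit. The median in Apoe-/- was 0.14 without microbead library 4, 0.39 without sham library 3 and 1.47 without sham library 2. Between genotypes in sham it was -0.64 without Apoe-/- sham library 3 and -1.83 without Apoe-/- sham library 2, and in microbead retinas 1.04 without Apoe-/- microbead library 4. In wild type it ranged from -2.24 to -1.46 over the single libraries left out. Without the 4 libraries that held the most rod reads, an alternative chosen after the data were seen, 13 members passed the filter. Their median log2 fold change was then -0.39 in wild type, with 9 lower and 4 higher, and it turned to -0.86 in Apoe-/-, with 12 lower and 1 higher. Between genotypes the median turned to 0.48 in sham and was 0.12 in microbead retinas, and the difference between the responses turned to -0.25. No member was called in any of these.

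The absence of calls also depended on the filter on low counts. With no filter, 28112 genes entered the fit and 13 of 37 members passed in wild type, all lower: Gnat1, Pde6g, Pde6b, Gngt1, Cngb1, Rcvrn, Pdc, Prph2, Rom1, Plekhb1, Rbp3, Nr2e3 and Reep6. In Apoe-/- retinas 1 passed, Rbp3. In that fit edgeR estimated infinite prior degrees of freedom, so that each gene took the variance of the trend and its own spread between libraries did not enter. In the fit with the filter they were 8.52. For Gnat1 the log2 fold change in wild type was -1.91 (SE 0.77) with the filter and -1.86 (SE 0.37) without it. With a lower minimum count of 5 in place of 10, an alternative added after the data were seen, 31 members and 9624 genes were tested and none of the members passed in any comparison.

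**Figure D4:**
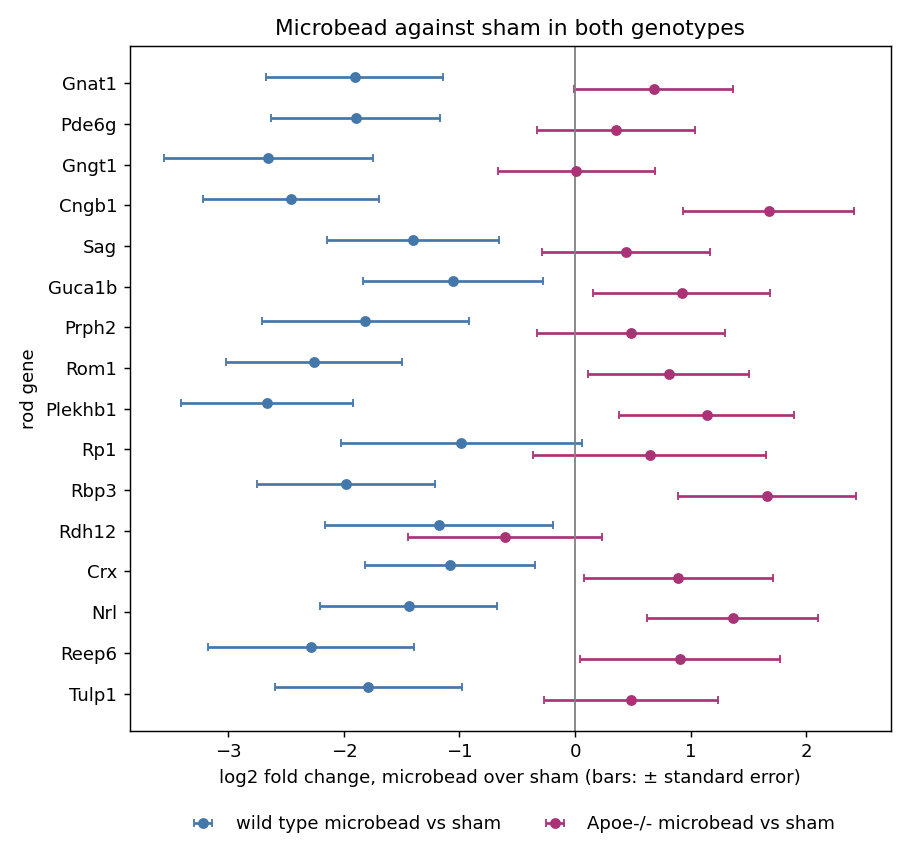
Log2 fold change of microbead over sham (horizontal axis, bars ± standard error) for 16 rod genes in wild-type (blue) and Apoe-/- (purple) retinas. Wild-type values lie between -2.67 and -0.98 and all but 1 of the Apoe-/- values above 0, though that of Gngt1, at 0.01, changes sign with the scaling. None passed the test.

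The transduction cascade held the most abundant members. Gnat1 (chr9:107674474-107679712, minus strand) encodes the alpha subunit of rod transducin and took 1781 reads. Its CPM values were 129, 128, 542 and 471 in wild-type sham, 142, 86.978 and 25.3 in wild-type microbead, 102, 293, 43.5 and 177 in Apoe-/- sham, and 131, 32.8, 282 and 507 in Apoe-/- microbead libraries. Wild-type sham 3 and 4 and Apoe-/- microbead 4 were the highest, and the groups overlapped in each genotype. Its log2 fold change with microbeads was -1.91 (SE 0.77, adjusted p = 0.531) in wild type and 0.68 (SE 0.69, adjusted p = 0.838) in Apoe-/-. Pde6g (chr11:120447605-120453500, minus strand) encodes the inhibitory subunit of the rod phosphodiesterase. It stood at 36.5, 27.956, 127 and 131 in wild-type sham, 40.6, 16.996 and 8.003 in wild-type microbead, 33.3, 129, 8.70 and 33.9 in Apoe-/- sham, and 26.9, 21.9, 81.6 and 94.9 in Apoe-/- microbead libraries in CPM. The order of its libraries was close to that of Gnat1, with Apoe-/- sham 2 among the highest. The log2 fold change was -1.90 (SE 0.73, adjusted p = 0.517) in wild type and 0.35 (SE 0.68, adjusted p = 0.930) in Apoe-/-.

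Gngt1 (chr6:3993792-3997436, plus strand) encodes the gamma subunit of rod transducin, and its upstream window above holds 1 Crx-type match. Its levels were 10.6, 12.2, 61.1 and 47.3 in wild-type sham, 13.035, 1.9995 and 1.33 in wild-type microbead, 19.032, 88.8, 3.48 and 20.9 in Apoe-/- sham, and 20.7, 8.19, 34.989 and 45.1 in Apoe-/- microbead libraries, in CPM. It was highest in Apoe-/- sham 2 and was under the limit of 3 reads in wild-type microbead 2 and 3 and in Apoe-/- sham 3. Its log2 fold change was -2.65 (SE 0.90, adjusted p = 0.454) in wild type and 0.01 (SE 0.68, adjusted p = 0.999) in Apoe-/-, and the latter sign changed with the scaling method.

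Cngb1 (chr8:95239045-95306585, minus strand), with 2 Crx-type matches in its window, encodes the beta subunit of the cyclic GMP-gated channel that the cascade closes. Its CPM values were 9.11, 12.2, 26.4 and 60.2 in wild-type sham, 8.69, 2.9992 and 2.67 in wild-type microbead, 9.52, 26.6, 3.48 and 0 in Apoe-/- sham, and 29.003, 13.7, 27.2 and 32.7 in Apoe-/- microbead libraries. All 4 wild-type sham libraries lay above all 3 wild-type microbead libraries, which in turn lay below the 4 Apoe-/- microbead libraries. Wild-type sham 1 and microbead 1 held 6 Cngb1 reads each, so their CPM values differ only through library size. Wild-type microbead 2 and 3 held 3 and 2 reads. Fitted log2 fold changes were -2.45 (SE 0.76, adjusted p = 0.351) in wild type and 1.67 (SE 0.74, adjusted p = 0.700) in Apoe-/-. Their difference was 4.13 (SE 1.06, adjusted p = 1.00), with an unadjusted p of 0.000918. The other cascade members were the catalytic subunits Pde6b (294 reads) and Pde6a (146), the sodium-calcium-potassium exchanger Slc24a1 (149) and the channel's alpha subunit Cnga1 (45, untested). Pde6b, Pde6a and Slc24a1 had fold changes of -1.93, -1.76 and -1.20 (log2) in wild type and 0.63, 0.84 and 0.69 in Apoe-/-.

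Of the genes that end the light response, Sag (chr1:87803680-87845158, plus strand) encodes rod arrestin, which binds the activated light receptor, and took 672 reads. Its CPM values were 42.5, 40.2, 193 and 222 in wild-type sham, 66.6, 49.987 and 24.009 in wild-type microbead, 33.3, 164, 5.22 and 54.8 in Apoe-/- sham, and 51.8, 19.1, 117 and 119.8 in Apoe-/- microbead libraries. It was lowest in Apoe-/- sham 3 and highest in wild-type sham 4. Its log2 fold change was -1.40 (SE 0.75, adjusted p = 0.688) in wild type and 0.44 (SE 0.73, adjusted p = 0.916) in Apoe-/-. Guca1b (chr17:47385393-47392967, plus strand) encodes a calcium-sensing activator of guanylate cyclase. It stood at 1.52, 6.99, 49.2 and 86.025 in wild-type sham, 23.2, 18.995 and 8.003 in wild-type microbead, 28.5, 35.5, 6.96 and 18.3 in Apoe-/- sham, and 24.9, 10.9, 48.6 and 66.9 in Apoe-/- microbead libraries in CPM. Wild-type sham 1 had the lowest value of all, and the wild-type microbead values lay within the range of the sham values. The fold changes were -1.06 (SE 0.78, adjusted p = 0.763) in wild type and 0.92 (SE 0.77, adjusted p = 0.792) in Apoe-/-, on the log2 scale.

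Rcvrn, which encodes the calcium sensor recoverin, was 1 of 5 members whose wild-type libraries did not overlap, at 7.59 to 56.4 CPM in sham and 2.67 to 5.79 in microbead retinas. It is named here after its values were seen. The 5 were Cngb1, Rcvrn, Rom1, Plekhb1 and Rbp3, or 18.5% of the 27 tested members, all lower with microbeads, against a background of 4.22% of all genes tested that lay lower without overlap. As for the unadjusted p-values, the members vary together and share the filter, so this count gives no independent support. In unscaled reads, wild-type sham 1 and microbead 1 tied for Cngb1 at 6. Rbp3 had 19 reads in wild-type sham 2 and 21 in microbead 1. Rcvrn had 5 reads each in wild-type sham 1 and 2 and 4 each in microbead 1 and 2. Rom1 had 20 reads each in wild-type sham 1 and 2 and 19 in microbead 1. For Plekhb1 the nearest were 10 reads in wild-type sham 1 and 6 in microbead 2. In Apoe-/- retinas 0 members lay higher without overlap, against a background of 1.55%. The remaining shut-off genes were the receptor kinase Grk1 (180 reads), the transducin-binding phosducin Pdc (158), the cyclase activator Guca1a (132), the GTPase accelerator Rgs9 (87) and the cyclases Gucy2f (28) and Gucy2e (27). The last 3 were untested. Grk1, Pdc and Guca1a had log2 fold changes of -1.25, -2.22 and -1.12 in wild type and -0.19, 0.90 and -0.63 in Apoe-/-.

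Structural genes of the outer segment were led by the tetraspanins Prph2 (chr17:46910459-46924933, plus strand) and Rom1 (chr19:8927391-8929356, minus strand), which shape the rims of the discs. Prph2 had CPM values of 30.4, 27.956, 97.1 and 166 in wild-type sham, 52.1, 12.997 and 4.0015 in wild-type microbead, 45.2, 164, 8.70 and 36.5 in Apoe-/- sham, and 31.1, 10.9, 103 and 165 in Apoe-/- microbead libraries. Apoe-/- sham 2 was as high as the highest wild-type sham and Apoe-/- microbead libraries, at 164 to 166 CPM. Its log2 fold change was -1.81 (SE 0.90, adjusted p = 0.652) in wild type and 0.48 (SE 0.81, adjusted p = 0.917) in Apoe-/-. Rom1 had CPM values of 30.4, 34.9, 95.9 and 123 in wild-type sham, 27.5, 12.997 and 4.0015 in wild-type microbead, 30.9, 88.8, 8.70 and 26.1 in Apoe-/- sham, and 29.003, 8.19, 79.7 and 115 in Apoe-/- microbead libraries. The 3 wild-type microbead libraries lay below the 4 sham libraries, though microbead 1, at 27.5 CPM, was close to the lowest of them, at 30.4. The log2 fold change was -2.26 (SE 0.76, adjusted p = 0.454) in wild type and 0.81 (SE 0.69, adjusted p = 0.802) in Apoe-/-.

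Plekhb1 (chr7:100642892-100662414, minus strand), which encodes a membrane protein with a pleckstrin homology domain, had the smallest unadjusted p of the members in wild type, 0.0019. In CPM it measured 15.2, 20.967, 20.4 and 40.9 in wild-type sham, 2.90, 5.9985 and 1.33 in wild-type microbead, 9.52, 4.44, 0 and 10.4 in Apoe-/- sham, and 10.4, 2.73, 11.7 and 24.9 in Apoe-/- microbead libraries. The sham libraries of the wild type stood above all 7 libraries of the wild-type microbead and Apoe-/- sham groups. In wild type the mean was 24.3 ± 11.3 CPM (SD, n = 4) after sham and 3.41 ± 2.37 CPM (SD, n = 3) after microbead injection. The microbead values rest on 2, 6 and 1 reads, and those of libraries 1 and 3 lie under the limit of 3 reads. The log2 fold change was -2.67 (SE 0.74, adjusted p = 0.245) in wild type and 1.14 (SE 0.76, adjusted p = 0.754) in Apoe-/-. Rp1 (chr1:3999557-4409241, minus strand), a microtubule-binding protein of the axoneme, had the largest unadjusted p in wild type, 0.356. It stood at 1.52, 1.75, 9.59 and 32.3 in wild-type sham, 8.69, 6.9982 and 0 in wild-type microbead, 4.76, 31.1, 1.74 and 5.22 in Apoe-/- sham, and 6.21, 2.73, 21.4 and 21.8 in Apoe-/- microbead libraries, in CPM. Most of these values are near or under 3 reads, and a pseudogene, Gm6101, overlaps it on the same strand, with 1 read. Its log2 fold change was -0.98 (SE 1.04, adjusted p = 0.859) in wild type and 0.64 (SE 1.00, adjusted p = 0.904) in Apoe-/-. The matrix proteoglycans Impg2 (44 reads) and Impg1 (16) and the actin-bundling Fscn2 (24) were untested.

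Among genes of retinoid handling, Rbp3 (chr14:33954003-33964216, plus strand) encodes the retinoid carrier that rods secrete into the matrix, and its window holds 1 Crx-type match. It took 469 reads, with CPM values of 33.4, 33.2, 123 and 157 in wild-type sham, 30.4, 29.992 and 4.0015 in wild-type microbead, 35.7, 26.6, 5.22 and 28.7 in Apoe-/- sham, and 18.6, 10.9, 99.1 and 154 in Apoe-/- microbead libraries. Apoe-/- sham 2, high for most members, was not high for Rbp3. The log2 fold change was -1.98 (SE 0.77, adjusted p = 0.525) in wild type and 1.66 (SE 0.77, adjusted p = 0.700) in Apoe-/-. Rdh12 (chr12:79208914-79222665, plus strand) encodes a retinol dehydrogenase of the inner segment. It measured 1.52, 1.75, 9.59 and 36.6 in wild-type sham, 10.1, 4.9987 and 0 in wild-type microbead, 21.4, 39.96, 1.74 and 33.9 in Apoe-/- sham, and 14.5, 8.19, 19.4 and 15.6 in Apoe-/- microbead libraries, in CPM. Unlike most members its mean was highest in Apoe-/- sham, at 24.3 ± 16.9 CPM (SD, n = 4), against 12.4 ± 16.6 (SD, n = 4) in wild-type sham libraries. The fold changes were -1.18 (SE 0.99, adjusted p = 0.806) in wild type and -0.61 (SE 0.84, adjusted p = 0.889) in Apoe-/-, on the log2 scale. Abca4, the flippase that clears retinoids from the discs, took 97 reads, with log2 fold changes of -1.82 and 0.64.

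Of the transcription factors, Crx (chr7:15865947-15879968, minus strand), with 2 Crx-type matches in its own window, encodes the homeodomain factor of photoreceptors. Its CPM values were 15.2, 10.5, 26.4 and 53.8 in wild-type sham, 17.4, 9.9974 and 9.34 in wild-type microbead, 0, 48.8, 1.74 and 5.22 in Apoe-/- sham, and 24.9, 10.9, 15.6 and 23.3 in Apoe-/- microbead libraries. The highest Apoe-/- sham library was at 48.8 CPM and the others at 5.22 or below. Its log2 fold change was -1.08 (SE 0.74, adjusted p = 0.750) in wild type and 0.89 (SE 0.82, adjusted p = 0.817) in Apoe-/-. Nrl (chr14:55518978-55524981, minus strand) encodes the leucine zipper factor that sets rod identity. It stood at 6.08, 15.7, 26.4 and 15.1 in wild-type sham, 11.6, 5.9985 and 0 in wild-type microbead, 7.14, 22.2, 3.48 and 7.83 in Apoe-/- sham, and 14.5, 5.46, 27.2 and 40.4 in Apoe-/- microbead libraries in CPM. All groups overlapped their neighbours, and the log2 fold change was -1.44 (SE 0.76, adjusted p = 0.685) in wild type and 1.36 (SE 0.74, adjusted p = 0.711) in Apoe-/-. Nr2e3, the nuclear receptor that represses cone genes in rods, took 100 reads, with log2 fold changes of -3.35 and 1.36. Its wild-type microbead libraries held 3, 1 and 1 reads, at or under the limit of 3 reads. Samd7, a chromatin repressor of photoreceptors, had 13 reads and was untested.

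Of the last group, Reep6 (chr10:80329953-80336441, plus strand) encodes an endoplasmic reticulum protein needed for rod membrane traffic. Its CPM values were 16.7, 5.24, 62.3 and 88.2 in wild-type sham, 20.3, 2.9992 and 4.0015 in wild-type microbead, 2.38, 53.3, 5.22 and 18.3 in Apoe-/- sham, and 8.29, 16.4, 36.9 and 56.005 in Apoe-/- microbead libraries. Tulp1 (chr17:28351515-28365222, minus strand) encodes a carrier of proteins to the outer segment. It measured 15.2, 5.24, 25.2 and 66.7 in wild-type sham, 11.6, 9.9974 and 1.33 in wild-type microbead, 30.9, 26.6, 6.96 and 7.83 in Apoe-/- sham, and 8.29, 5.46, 25.3 and 51.3 in Apoe-/- microbead libraries, in CPM. Both were highest in wild-type sham 4, and their groups overlapped in each genotype. The log2 fold change of Reep6 was -2.28 (SE 0.89, adjusted p = 0.525) in wild type and 0.91 (SE 0.87, adjusted p = 0.827) in Apoe-/-. That of Tulp1 was -1.79 (SE 0.81, adjusted p = 0.610) and 0.48 (SE 0.75, adjusted p = 0.904). The synaptic scaffold Mpp4 (107 reads) and the phosphodiesterase chaperone Aipl1 (107) had log2 fold changes of -1.99 and -2.08 in wild type and 1.04 and 1.58 in Apoe-/-. Other gene models overlap Mpp4, Rp1 and Cnga1 on the same strand and Pde6a, Rcvrn, Impg1 and Abca4 on the opposite strand. Such an overlap can make the reads of these 7 members uncertain. Estimated reads of a gene that are not whole numbers mark reads divided between genes. Among others, Gngt1, Sag and Pde6a had them in 15 libraries, and Gnat1, Grk1, Crx and Rdh12 in 14. Rp1, Cnga1 and Rcvrn had them in 0 libraries. The uncertainty is thus not limited to the 7 members with an overlap. Nxnl1 (54 reads), which gives rise to a survival factor for cones, and the transducin carrier Unc119 (52) were untested.

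On a scale that allows genes to be compared, TPM (a transcript level divided by length), Gnat1 was the most abundant member with a median of 31.1 over the 15 libraries and a range of 7.50 to 98.2. Pde6g had a median of 9.92 TPM, Gngt1 8.09, Sag 7.16 and Rom1 5.86. As a rough measure of stray signal, 1791 olfactory, vomeronasal and taste receptor genes had a mean of 0.675 TPM over genes and libraries. Whether microglia transcribe any of these genes was not tested, so the highest of them need not be stray signal. The 95th percentile of their gene means was 2.71 TPM, the 99th 10.6 TPM and the highest 47.9 TPM. By mean TPM 14 of the 37 members lay above the former and 4, Gnat1, Pde6g, Gngt1 and Sag, above the latter. The other 23, among them Rbp3, Crx and Nrl, lay at or below the 95th percentile, and no member had a mean above the highest receptor gene. The receptor genes were not matched to the members by length, by which TPM divides. Rbp3 had 469 reads and was present in all 15 libraries, so a place below that percentile does not mark a member as absent.

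Rod reads fell mostly on coding transcripts. Over all libraries 84.9% of rod reads were assigned to protein-coding transcript models and 9.47% to retained-intron models, against 73.6 and 11.4% of the reads of the other tested genes outside the satellite models. The libraries with the most rod reads weigh most in these shares. Of the 15 libraries, 4 had a lower coding share for rod reads than for the other genes and 7 a higher retained-intron share. For 7 members retained-intron models took over 20%. The share was 82.5% for Rdh12, 48.8% for Tulp1, 46.3% for Mpp4, 35.5% for Nrl and 31.9% for Sag. Per library the coding share was 95.3% in wild-type sham 3 and 56.5% in wild-type microbead 3, the highest and the lowest. Salmon divides reads among overlapping transcripts by estimate, so these shares carry that uncertainty.

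Genes outside the set with the most similar pattern included photoreceptor genes. Of the 10 tested genes whose log2 CPM correlated most with the mean of the members over 15 libraries, 8 are given here. They were Gnb1 (r = 0.923), which encodes the beta subunit of rod transducin and is widely transcribed, the complexin gene Cplx4 (0.892), Atp1b2 (0.889), a sodium pump subunit, and the photoreceptor cadherin gene Cdhr1 (0.883). Tma7 (0.870), Vopp1 (0.856), Impdh1 (0.852) and Gnb5 (0.843) followed. Of 40 further photoreceptor genes listed outside the set, 14 were tested and 0 passed in any comparison. Their median log2 fold change was -1.09 in wild type, with all 14 negative, and 0.49 in Apoe-/-, with 12 positive. Of all genes tested, 50.9% were negative in wild type and 50.8% positive in Apoe-/-. These genes share the libraries and the filter with the members and were listed with results known. Their direction thus gives no independent support. Gnb1 had -1.27 (SE 0.43, adjusted p = 0.454) in wild type and 0.46 (SE 0.40, adjusted p = 0.802) in Apoe-/-, and Susd3, the other most abundant gene of that list, -0.38 (SE 0.27, adjusted p = 0.758) and 0.27 (SE 0.26, adjusted p = 0.833).

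Markers of other retinal cells were low. The summed level of 14 cone genes ranged from 58.0 to 175 CPM, 3.02-fold, where that of the rod genes ranged 17.8-fold. Its 2 tested genes, Gngt2 and Cnnm4, made up most of it, and none passed. Gngt2 had 11 to 25 reads per library and Cnnm4 6 to 35. The cone range thus describes mainly these 2 genes, and whether their reads came from cones was not tested. The range of the other cone genes was not computed. The cone pigment gene Opn1sw had 31 reads in Apoe-/- microbead 3 and 0 to 2 in every other library. Müller glia genes (13) summed to 79.2 to 174 CPM. Most of this came from Glul, with 19 to 108 reads per library, and Slc1a3, with 5 to 36. Rlbp1 of the same list had 0 to 5 reads. The cells that gave the reads of Glul and Slc1a3 were not tested. Bipolar cell genes (15) summed to 7.78 to 93.2 CPM, a 12.0-fold range that rests on 5 to 33 reads per library, with Gng13 at 0 in all. Ganglion cell genes (12) held 14 to 40 reads per library, amacrine and horizontal cell genes (14) 4 to 23 with Slc32a1, C1ql1 and Onecut1 at 0, and pigment epithelium genes (10) 9 to 27 with Ttr at 0. Endothelial and pericyte genes (12) held 11 to 51 reads, and monocyte and neutrophil genes (12) 5 to 33 with S100a9 and Camp at 0. The part of any of these cells in the rod levels was not tested.

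The summed microglial lists varied less over libraries than the rod sum, but single genes of the neurodegenerative state varied widely. The 18 genes of that state summed to 4720 to 18884 CPM, a 4.00-fold range. Gpnmb among them had 0 to 1218 reads per library. The 16 homeostatic genes summed to 10545 to 20226 CPM, a 1.92-fold range, with the lowest value in Apoe-/- sham 2. In wild type they averaged 18806 ± 1511 CPM (SD, n = 4) after sham and 17126 ± 1666 CPM (SD, n = 3) after microbead injection, and in Apoe-/- 15107 ± 3858 CPM (SD, n = 4) and 16237 ± 2211 CPM (SD, n = 4). None of the 16 passed in any comparison. Of 17 receptors and bridging molecules of phagocytosis 13 were tested and 0 passed. Their summed level was 2123 ± 100 CPM (SD, n = 4) in wild-type sham and 2416 ± 9.13 (SD, n = 3) in wild-type microbead libraries, and 1862 ± 419 (SD, n = 4) and 2146 ± 239 (SD, n = 4) in the Apoe-/- groups. Of 18 genes of the neurodegenerative state, which includes phagocytic genes, 7 rose in wild-type retinas with microbeads, against 0.199% of all genes called. None of the 18 passed with microbeads in Apoe-/- retinas, and 2 were lower in Apoe-/- than in wild-type microbead retinas, against 0.046% of all genes called. The 7 calls became 0 without wild-type microbead library 2, 1 without wild-type sham library 1 or 3, and 2 without sham library 2 or 4. The 2 calls between genotypes became 0 without Apoe-/- microbead library 1, 3 or 4, without library 4 of the Apoe-/- sham group, and, in wild type, without sham library 1 or microbead library 2. They became 1 without sham library 4 or microbead library 1 of the wild type, and 4 without Apoe-/- microbead library 2. Whether rod RNA reached the libraries with engulfed material, with attached rod fragments or as free RNA was not tested.

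**Figure D5:**
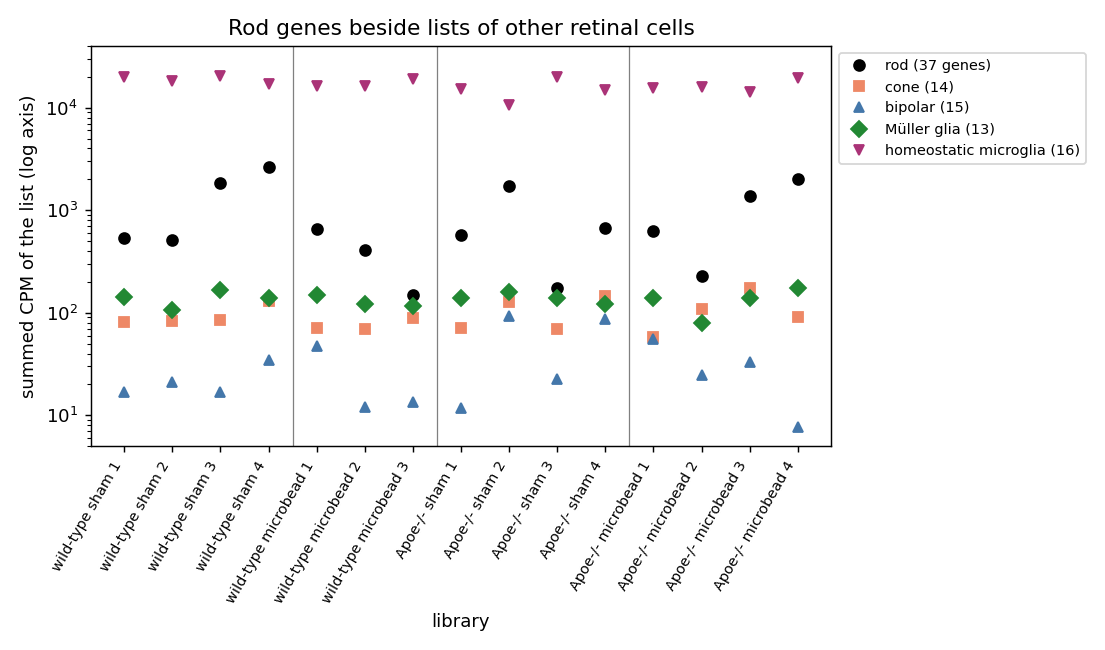
Summed CPM (log axis) of the rod genes and of lists of cone, bipolar, Müller glia and homeostatic microglial genes in each library, with the number of genes in brackets and lines between groups. The rod sum ranges 17.8-fold over libraries, the cone sum 3.02-fold and the homeostatic sum 1.92-fold. Most of the cone sum comes from 2 genes, Gngt2 and Cnnm4, and most of the Müller glia sum from Glul and Slc1a3.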

How the data were processed

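RNA of sorted retinal microglia was measured in 15 libraries. The authors deposited, per the file headers, Salmon tables of estimated counts per transcript, and a table of TPM per gene for the series. Per the submitters' processing notes, Salmon 1.4.0, R 4.0.3, DESeq2 1.30.1 and mm10 were used. The deposited gene table is labelled SMARTSeq2. Beyond that label the sources used here do not give the library type or read filters.

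Estimated counts were summed per gene by transcript identifier with GENCODE M21 (116023 of 116945 transcripts assigned, 0.217 to 0.354% of a library's reads left out) and rounded. Gene reads were 458111 to 714670 per library. Every pair of libraries within a group differed beyond sampling noise (chi-square per degree of freedom 2.21 or more). Counts were fitted with edgeR 4.0.16 in R 4.3.3 (quasi-likelihood F-test, TMM, filterByExpr with a minimum count of 10) in 1 model of 15 libraries in 4 groups, with 5 contrasts. P-values are two-sided and adjusted by Benjamini-Hochberg over 6521 genes, with a threshold of 0.05. Log2 CPM used a prior count of 2. SE is the log2 fold change divided by the square root of F. The procedure was run on simulated data with independent genes and 1 spread for all of them. The members vary together and more widely, so that run does not measure error rates for them. Intervals of read shares are exact at 95% and cover counting error only. TPM is from the authors' deposited table and serves only to compare levels between genes.

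The members and lists were chosen with earlier results of these data known. Named members are any called in a contrast, the 2 tested members with the most reads in each of 6 roles, and those with the smallest and largest p in each microbead contrast; other genes are named if among the 10 most correlated with the members or the 2 most abundant of a list. 2 genes of the former kind are not reported here. The 12 satellite models were picked from the most abundant models. Promoters come from RefSeq on GRCm38.p6. Alternatives were RLE size factors, library sizes outside the satellites, DESeq2 1.42.0, other filters, a replicate block and leaving out libraries.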

Additional observations from a re-analysis of the deposited data

Results flagged for a closer look

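Within groups of 4 libraries, 1 library stood far from the other 3 for 2 members, both times Apoe-/- sham library 2. Rp1 was at 31.1 CPM there and at 1.74 to 5.22 CPM in the other 3 Apoe-/- sham libraries. Crx was at 48.8 CPM there and at 0 to 5.22 CPM in the others. The gap to the nearest library, divided by the group's range, was 0.881 and 0.893. Of 51 groups examined 2 were flagged, and chance flags about 1 in 20. That library also has the smallest library size and the highest satellite share of the 15.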

How the results depend on the processing

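Rod members called stayed at 0 in all 5 comparisons under RLE size factors, library sizes outside the satellites, DESeq2, the replicate block, each of 15 single libraries left out, the minimum count of 5 and the 4 libraries left out. Without a filter they were 13 in wild type, 1 in Apoe-/-, 2 between genotypes in sham, 7 in microbead and 14 for the difference between responses, with 124, 37, 41, 73 and 45 genes called over all 28112. DESeq2 called 36 genes in wild type and 26 between genotypes in microbead retinas. The minimum count of 5 called 22 genes in wild type. With the replicate number as a block, 7 genes were called in wild type and 1 between genotypes in microbead retinas; the block changed no other count. The numbers do not pair the retinas, with r between same-numbered deviations from -0.16 to 0.22. Leaving out 1 library, genes called ranged from 0 to 29 in wild type and from 1 to 7 between genotypes in microbead retinas. Without the 4 libraries with the most rod reads, 1 gene was called in wild type, 1 in Apoe-/- and 1 for the difference, and the members' median turned to -0.858 in Apoe-/-, 0.484 between genotypes in sham and -0.246 for the difference. Summed rod levels on other scales, with sham before microbead, were 3549 and 1016.5 in wild type and 1703 and 2727 in Apoe-/- as CPM of the reads outside the satellites, and 219 and 114 and then 91.9 and 172 as TPM. Of 682 alternative log2 fold changes of 16 named members in 2 contrasts, 644 kept direction and side, 10 passed only without the filter and 28 reversed. Without the 4 libraries, 12 of 22 reversed: in Apoe-/- Gnat1 (-0.858), Pde6g (-0.895), Gngt1 (-0.950), Sag (-0.673), Guca1b (-0.191), Prph2 (-1.40), Rom1 (-0.841), Rbp3 (-0.617) and Reep6 (-0.500), and in wild type Sag (0.167), Guca1b (1.958) and Rdh12 (1.48). Gngt1 in Apoe-/- reversed under RLE (-0.00929), DESeq2 (-0.223) and the replicate block (-0.0866). With 1 library left out its range was -0.461 to 1.04, that of Gnat1 -0.00435 to 1.17, Pde6g -0.0796 to 1.25, Sag -0.0242 to 1.404, Prph2 -0.193 to 1.46 and Tulp1 -0.333 to 0.996, all in Apoe-/-, and that of Rdh12 in wild type -1.98 to 0.0914. The causes were not tested, except that without a filter gene variances were set by the trend. Most members held few reads, which limits the precision of each fold change.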
